A study of Homo sapiens with 6 samples.

Results

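The genes described are those of collagen hydroxylation and cross-linking: the lysyl hydroxylases PLOD1, PLOD2 and PLOD3, the prolyl 4-hydroxylase subunits P4HA1, P4HA2, P4HA3 and P4HB, the lysyl oxidases LOX and LOXL2, and the collagen chaperone SERPINH1. Every probe set annotated to one of these symbols alone was taken, which gave 22 probe sets for the 10 genes, of 54675 probe sets and 19775 singly annotated genes on the array. RNA came from DMS-53, an established human small cell lung cancer line, hybridized to 6 Affymetrix U133 Plus 2.0 arrays. Cells were kept for 24 h in RPMI medium with 250 µM DFO (2 arrays), in RPMI medium with 25 µM Dp44mT (2 arrays) or in RPMI medium alone as control (2 arrays). DFO (desferrioxamine) is a bacterial siderophore with high affinity for iron that crosses membranes poorly. Dp44mT belongs to the thiosemicarbazones, crosses membranes readily and takes up copper as well as iron. The arrays of each group are numbered by set, 1 and 2, and the labels do not say whether sets were separate cultures, so the p-values rest on a spread between arrays that could be technical.

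Collagen chains are modified in the endoplasmic reticulum before they leave the cell. Prolyl 4-hydroxylase is a tetramer of a catalytic alpha subunit (P4HA1, P4HA2 or P4HA3) and P4HB, the protein disulfide isomerase, and its product 4-hydroxyproline stabilizes the collagen helix. Lysyl hydroxylases modify lysines that later take part in cross-links, PLOD2 mainly those of the chain ends. Both kinds of hydroxylase hold iron in the active site and use 2-oxoglutarate and oxygen, while lysyl oxidases are copper enzymes that start cross-linking outside the cell. Several of these genes are known to be induced by hypoxia through the transcription factor HIF, whose own degradation needs iron-dependent prolyl hydroxylases of another family.

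The arrays were not on one scale, with medians of the deposited values of 85.5 and 63.0 for DFO, 83.6 and 49.9 for Dp44mT, and 88.9 and 88.8 for control, so values were quantile normalized as log2(intensity + 16). The chelator arrays of set 2 were therefore the dimmest, and results that differ between sets are given for each set. A difference in a set is the chelator array less the control array of the same number, though the numbers are not taken to pair them. Of 10 neuroendocrine markers of the labelled line, 9 had a probe set, and all 9 were above the limit for dim probe sets (5.55 on the log2 scale) on every array. Their summed normalized intensity was 11024 to 11110 in DFO, 8565 to 9500 in Dp44mT and 16861 to 19762 in control. The median difference of the 9 from control was −0.35 in DFO and −0.50 in Dp44mT on the log2 scale. In the limma test described below, 0 of 9 were called in DFO. In Dp44mT 1 of 9 was called, lower, beside 0.7% called lower among 16868 genes. All 5 epithelial markers were above that limit on every array, with sums of 23019 to 23486 in DFO, 20767 to 21281 in Dp44mT and 20607 to 21178 in control.

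PLOD2 and P4HA1 are the genes on which the results turn. The bases before their RefSeq starts are shown with those of LOX, whose differences did not pass the test. Capitals mark ACGTG or GCGTG, the core letters to which HIF binds, or their complements CACGT and CACGC on the printed strand; a CACGTG would count once on each strand. The sequences are the 250 bases before the start (RefSeq, GRCh38.p14, minus strand): chr3:146161185-146161434 for PLOD2, chr10:73096867-73097116 for P4HA1 and chr5:122078260-122078509 for LOX.
PLOD2: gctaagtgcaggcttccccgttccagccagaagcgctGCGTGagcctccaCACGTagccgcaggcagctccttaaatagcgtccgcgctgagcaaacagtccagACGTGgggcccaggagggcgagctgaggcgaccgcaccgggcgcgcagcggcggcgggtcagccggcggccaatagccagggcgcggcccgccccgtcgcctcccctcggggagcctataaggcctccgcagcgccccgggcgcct
P4HA1: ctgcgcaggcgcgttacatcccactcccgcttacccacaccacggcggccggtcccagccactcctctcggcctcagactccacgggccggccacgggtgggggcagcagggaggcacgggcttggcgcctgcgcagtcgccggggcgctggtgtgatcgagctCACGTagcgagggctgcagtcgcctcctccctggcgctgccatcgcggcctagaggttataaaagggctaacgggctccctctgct
LOX: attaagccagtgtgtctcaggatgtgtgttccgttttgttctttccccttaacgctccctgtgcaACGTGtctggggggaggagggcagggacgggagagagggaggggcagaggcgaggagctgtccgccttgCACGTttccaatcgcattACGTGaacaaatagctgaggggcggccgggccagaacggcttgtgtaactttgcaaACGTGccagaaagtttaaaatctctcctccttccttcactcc

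The PLOD2 window held 3 matches, at bases -213, -200 and -146 from the start, counted by the leftmost base of each. P4HA1 had 1 match at -86, and LOX had 4 at -185, -116, -98 and -42. Of 35116 such windows, 43.2% held at least 1 match, 7.76% at least 3 and 3.22% at least 4. Windows of 8 of the 10 genes were in the table used, without P4HA3 and LOXL2. For each gene only 1 window was searched, the first listed, so a count of 0 holds for that start alone. PLOD1 had 2 matches, P4HB 1, and PLOD3, P4HA2 and SERPINH1 had 0. A match is a string of letters in this window and does not show binding.

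The comparison of each chelator with control asked which of these genes differ after 24 h with the compound. The arrays do not measure iron or its binding. PLOD2 and P4HA1 were up-regulated by both chelators and no other gene of the 10 passed the test in either. With DFO, 3 of 17 tested probe sets rose (17.6%) and 0 fell, against 0.589% called among all 40950 probe sets tested (0.569% higher, 0.0195% lower). With Dp44mT, again 3 of 17 rose and 0 fell, against 1.64% of all probe sets (1.07% higher, 0.564% lower). In each case the 3 were both PLOD2 probe sets and 1 of P4HA1, so they stand for 2 genes. A call is an adjusted p under 0.05 in limma's moderated test over all probe sets tested. Both comparisons use the same 2 control arrays. In RNA from whole cultures, a change in the make-up of the cells and a change of RNA per cell cannot be told apart.

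The median change of the 17 tested probe sets was 0.17 on the log2 scale in DFO and 0.14 in Dp44mT, beside −0.04 and 0.01 over all probe sets tested. In DFO, 7 of the 17 had both DFO arrays above both control arrays, where 17% of all probe sets did, and 3 had them below, where 27.8% did. In Dp44mT, 6 lay above (28.5% of all probe sets) and 1 below (32.8%). The remaining 14 of 17 probe sets did not pass in either comparison, and they included values on both sides of 0.

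**Figure D1:**
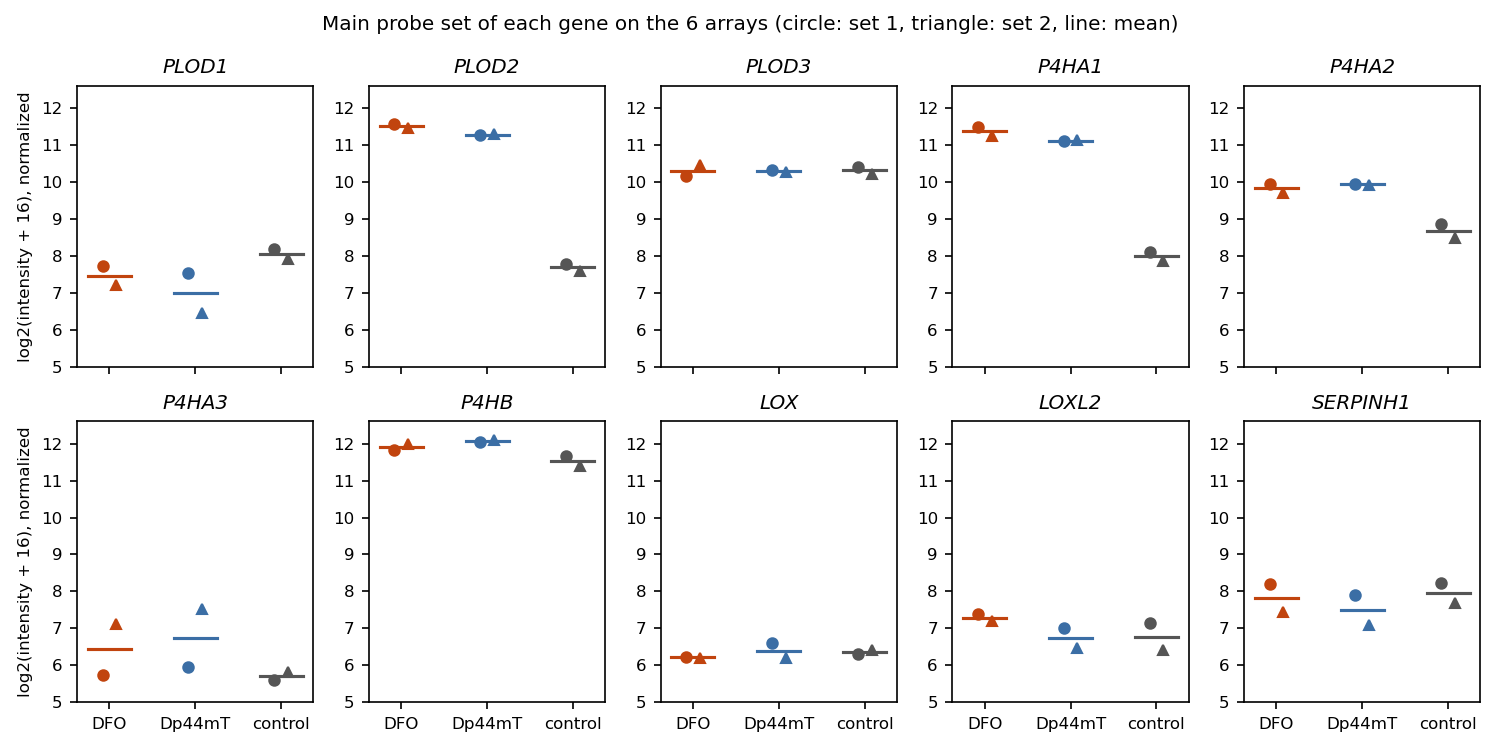
Normalized log2(intensity + 16) of the probe set with the highest mean for each gene, on the 2 DFO, 2 Dp44mT and 2 control arrays; circles are set 1, triangles set 2 and lines group means. Both chelators lie far above control for PLOD2 and P4HA1 and above it by about 1 log2 unit for P4HA2, while heights are not comparable between genes.

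Among the lysyl hydroxylases, PLOD2 had deposited intensities of 4042 and 1955 on the DFO arrays, 2817 and 1382 on the Dp44mT arrays, and 254 and 219 on the control arrays. After normalization these were 11.59 and 11.45 in DFO, 11.27 and 11.31 in Dp44mT, and 7.80 and 7.59 in control, on the log2 scale. All 4 chelator arrays were thus far above both control arrays, and the arrays of a group lay close together. PLOD2 rose by 14.2-fold in DFO (log2 3.83, SE 0.19, 95% interval 3.34 to 4.31, n = 2 arrays per group, limma adjusted p = 0.0151). In Dp44mT it rose by 12.1-fold (log2 3.59, SE 0.19, interval 3.11 to 4.08, limma adjusted p = 0.00974). The second PLOD2 probe set had intensities of 3546 and 1563 in DFO, 2764 and 1198 in Dp44mT, and 159 and 146 in control. It rose by 17.3-fold in DFO (log2 4.11) and by 16.3-fold in Dp44mT (log2 4.03), so both probe sets of the gene gave changes of like size. Among the 40950 probe sets ordered from the highest log2 change, those of PLOD2 stood at places 16 and 12 in DFO and at 25 and 14 in Dp44mT.

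PLOD1, which hydroxylates lysines within the collagen helix, had normalized levels of 7.73 and 7.21 in DFO, 7.54 and 6.46 in Dp44mT, and 8.20 and 7.92 in control. Both chelator groups lay below control without overlap, but neither passed. The difference was −0.59 in DFO (interval −1.62 to 0.44, limma adjusted p = 0.680) and −1.06 in Dp44mT (interval −2.09 to −0.03, limma adjusted p = 0.223). In Dp44mT the difference was −0.66 in set 1 and −1.46 in set 2. PLOD3, a lysyl hydroxylase that also adds sugars to collagen, stood at 10.17 and 10.45 in DFO, 10.34 and 10.27 in Dp44mT, and 10.40 and 10.23 in control. The groups overlapped, and its differences were 0.00 in DFO (interval −0.51 to 0.51) and −0.01 in Dp44mT (interval −0.52 to 0.50). The sign of either depended on which array was left out.

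Among the prolyl 4-hydroxylase subunits, P4HA1 had deposited intensities of 3815 and 1695 in DFO, 2535 and 1213 in Dp44mT, and 321 and 276 in control. The normalized levels were 11.49 and 11.26 in DFO, 11.10 and 11.13 in Dp44mT, and 8.11 and 7.88 in control. Again each chelator array lay above both control arrays by more than the whole spread within any group. P4HA1 rose by 10.4-fold in DFO (log2 3.38, SE 0.20, interval 2.87 to 3.89, n = 2 arrays per group, limma adjusted p = 0.0151). In Dp44mT it rose by 8.69-fold (log2 3.12, SE 0.20, interval 2.61 to 3.63, limma adjusted p = 0.00974). The other P4HA1 probe set was dim, with a mean of 5.60 just over the limit of 5.55, and did not follow. Its intensities were 36.4 and 31.9 in DFO, 28.6 and 28.3 in Dp44mT, and 33.2 and 34.6 in control, for log2 differences of 0.17 and 0.10.

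P4HA2 had normalized levels of 9.96 and 9.71 in DFO, 9.96 and 9.92 in Dp44mT, and 8.87 and 8.48 in control. All chelator arrays lay above both control arrays. The difference was 1.16 in DFO (SE 0.23, interval 0.59 to 1.73) and 1.26 in Dp44mT (SE 0.23, interval 0.70 to 1.83), or 2.24-fold and 2.40-fold. Neither passed (limma adjusted p = 0.150 in DFO and 0.0662 in Dp44mT). Both intervals lay above 0, but they are not adjusted for the number of probe sets tested. An interval off 0 amounts to an unadjusted limma p under 0.05. Of all 40950 probe sets, 4528 had that in DFO and 8817 in Dp44mT. The Dp44mT call stood near the threshold: it passed under 7 of 18 alternative settings, among them 1 probe set per gene (limma adjusted p = 0.0498). Over all 18 the limma adjusted p ran from 0.0263 to 0.634. The lowest came from the block with control set numbers exchanged, a setting chosen after seeing the data and counted among the 7. On the deposited scale the difference was 0.84 in DFO and 0.58 in Dp44mT. The next probe set of P4HA2 had smaller differences, 0.30 in DFO and −0.09 in Dp44mT, with intensities of 164 and 69.0, 95.2 and 46.1, and 91.9 and 105 in DFO, Dp44mT and control. Its groups overlapped in both comparisons. The last P4HA2 probe set was below the limit, at 2.16 to 6.65 intensity units on all 6 arrays, and was not tested.

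P4HB, the partner subunit and a general disulfide isomerase of the endoplasmic reticulum, was measured by 3 bright probe sets. The brightest had normalized levels of 11.82 and 11.98 in DFO, 12.03 and 12.09 in Dp44mT, and 11.66 and 11.38 in control. Its difference was 0.38 in DFO (interval −0.12 to 0.89, limma adjusted p = 0.587) and 0.54 in Dp44mT (interval 0.03 to 1.05, limma adjusted p = 0.211). The chelator arrays lay above control here but not in the other probe sets, which differed by 0.08 and 0.10 in DFO and by 0.14 and 0.19 in Dp44mT. On the deposited scale, without normalization between arrays, the brightest gave −0.02 in DFO and −0.03 in Dp44mT.

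P4HA3, a less widely expressed alpha subunit, had normalized levels of 5.74 and 7.13 in DFO, 5.96 and 7.54 in Dp44mT, and 5.62 and 5.83 in control. The set 2 array was the high one in both chelator groups, and the set 1 arrays lay near control. The differences of 0.71 in DFO (interval −0.94 to 2.36) and 1.03 in Dp44mT (interval −0.62 to 2.68) did not pass (limma adjusted p = 0.744 and 0.387). They were 0.12 and 0.35 in set 1, against 1.30 and 1.71 in set 2. The second P4HA3 probe set was below the limit (7.32 to 22.8 intensity units) and was not tested.

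The set 2 chelator arrays, the highest for P4HA3, also had the highest summed normalized intensity of 12 fibroblast markers. It was 1316 and 2999 in DFO, 1563 and 3720 in Dp44mT, and 1607 and 987 in control. The other 4 arrays did not share an order in the markers and P4HA3. Before normalization the sums lay closer together, at 1646 and 2227 in DFO, 1703 and 2068 in Dp44mT, and 1953 and 1224 in control. Of the 12 marker genes, 10 were above the limit in their mean. DCN, COL1A2 and POSTN, picked after their values were seen, were highest on the set 2 chelator arrays and need not stand for the other markers. DCN intensities were 153 and 343 in DFO, 136 and 390 in Dp44mT, and 217 and 42.5 in control. Over the 10 tested markers the median difference was −0.28 in set 1 and 0.73 in set 2 in DFO, and −0.09 and 1.08 in Dp44mT. PDGFRB and FAP were below the limit, and 0 of the 10 tested markers passed in either comparison. The endothelial markers gave sums of 808 and 1793 in DFO, 839 and 2168 in Dp44mT, and 855 and 448 in control, and 5 of 8 were above the limit. Their deposited sums were 1046 and 1308 in DFO, 920 and 1212 in Dp44mT, and 1007 and 551 in control. Leukocyte markers, 6 measured and 5 above the limit, gave 463 to 613 in DFO, 535 to 576 in Dp44mT and 585 to 828 in control. Whether such cells were present, or had a part in the P4HA3 values, was not tested. For PLOD2 and P4HA1 the DFO differences were 3.79 and 3.37 in set 1, and 3.86 and 3.38 in set 2, and the Dp44mT differences were 3.47 and 2.99 in set 1, and 3.72 and 3.25 in set 2.

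**Figure D2:**
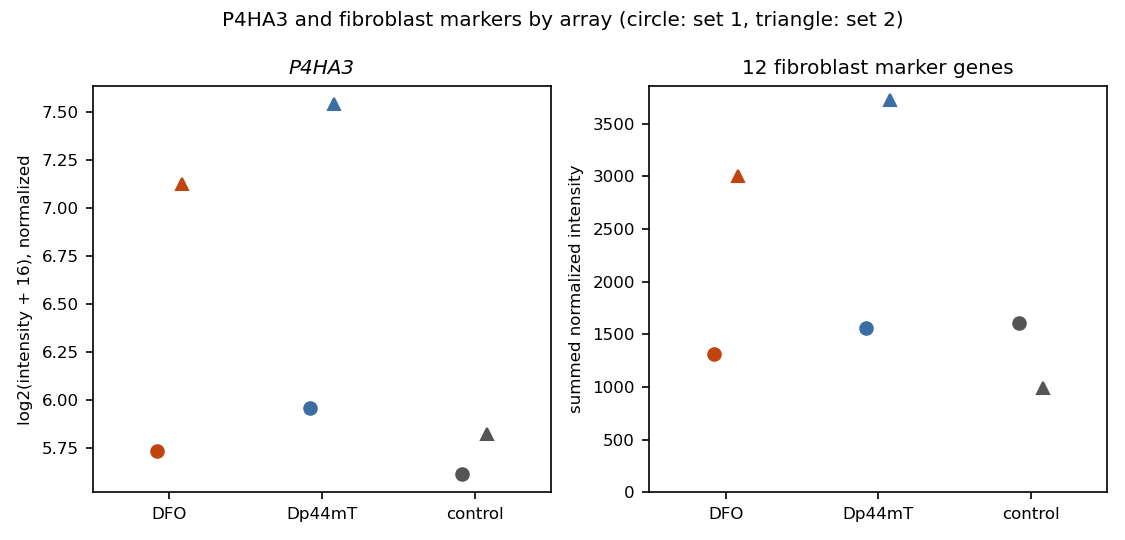
Left, normalized log2(intensity + 16) of P4HA3 on each array; right, summed normalized intensity of 12 fibroblast marker genes, on an axis from 0; circles are set 1 and triangles set 2. The set 2 chelator arrays are highest in both, at 7.13 and 7.54 for P4HA3 and at 2999 and 3720 for the markers.

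The lysyl oxidases, which need copper and not iron, did not pass in any comparison. LOX had normalized levels of 6.23 and 6.20 in DFO, 6.61 and 6.19 in Dp44mT, and 6.30 and 6.41 in control. Its mean stood at percentile 45.6 of all probe sets, without the control probe sets of the array. Both DFO arrays lay below both control arrays, by little, and the Dp44mT arrays overlapped with control. The difference was −0.14 in DFO (interval −0.70 to 0.41, limma adjusted p = 0.832) and 0.04 in Dp44mT (interval −0.51 to 0.60, limma adjusted p = 0.915). The other 2 LOX probe sets were below the limit and not tested, with 15.6 to 46.9 and 10.7 to 29.0 intensity units over the 6 arrays.

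LOXL2 had 4 probe sets, of which 3 were tested. The brightest had normalized levels of 7.38 and 7.20 in DFO, 7.03 and 6.47 in Dp44mT, and 7.14 and 6.42 in control, for differences of 0.51 (interval −0.32 to 1.34) and −0.03 (interval −0.86 to 0.80). Both DFO arrays lay above both control arrays, and the spread within the control pair was larger than either difference. The other tested probe sets differed by −0.17 and 0.07 in DFO and by 0.07 and 0.18 in Dp44mT, and the fourth was below the limit (4.21 to 10.1 intensity units). SERPINH1, which encodes the collagen-binding chaperone HSP47, stood at 8.19 and 7.45 in DFO, 7.91 and 7.10 in Dp44mT, and 8.24 and 7.68 in control. The groups overlapped, with differences of −0.14 (interval −1.16 to 0.89) and −0.46 (interval −1.48 to 0.57). Of the lysyl oxidases outside the group, LOXL1, LOXL3 and LOXL4, 0 of 3 passed in any comparison. LOXL3 differed by −0.29 in DFO, and LOXL1 by −0.42 in Dp44mT, while LOXL4 differed by −0.96 in set 1 and 1.11 in set 2 in DFO.

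**Figure D3:**
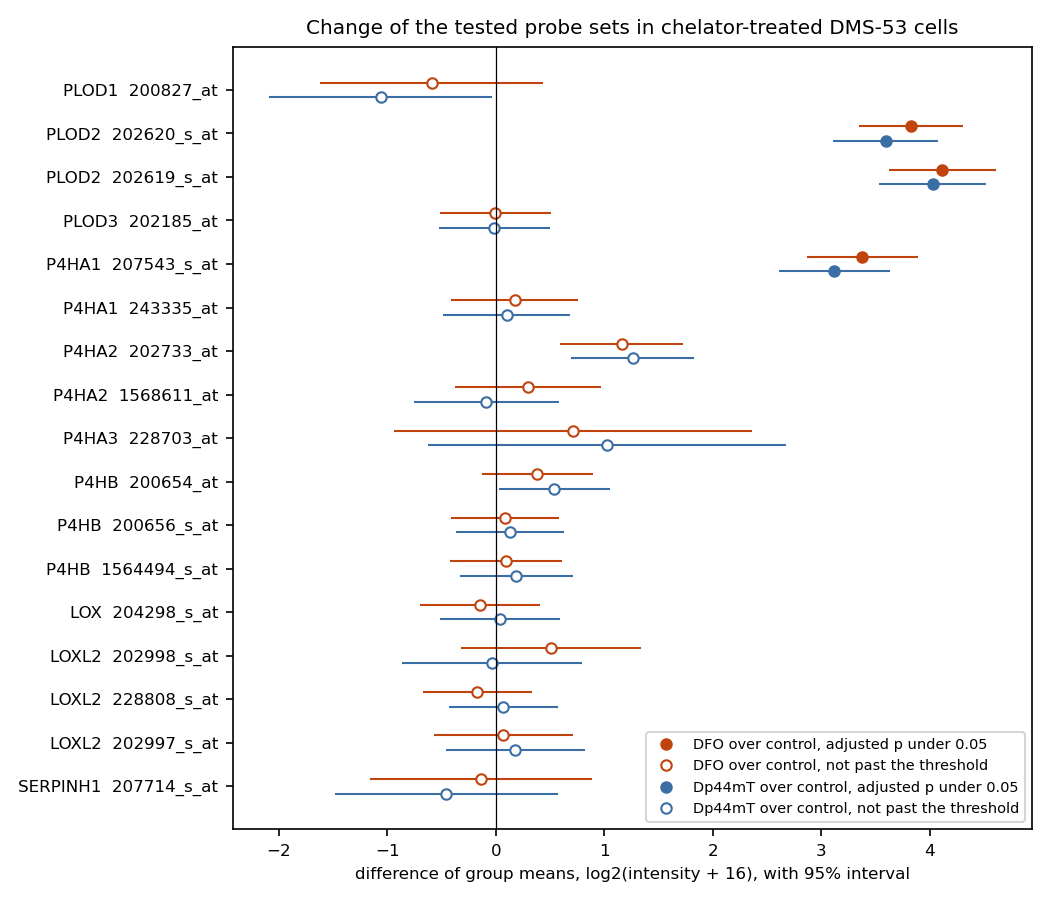
Difference of group means of log2(intensity + 16), DFO over control and Dp44mT over control, with 95% intervals of limma's moderated test, for the 17 tested probe sets; filled points have an adjusted p under 0.05. The filled points are both PLOD2 probe sets and 1 of P4HA1, and all other probe sets lie between −1.06 and 1.26.

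The direct comparison of Dp44mT with DFO asked whether the chelators differed, at doses that were not the same. In limma 0 of 17 probe sets passed, and 0 had an unadjusted p under 0.05. This fit had no set term, although deviations of same-numbered Dp44mT and DFO arrays correlated at 0.83. Set differences shared by the chelators thus stay in its intervals. SERPINH1 differed by −0.28 in set 1 and −0.35 in set 2, with an interval of −1.34 to 0.71. P4HA3 differed by 0.23 and 0.41, with −1.33 to 1.97. Under all 18 alternatives, a set block among them, 0 of these probe sets passed. Among all probe sets 0 passed as well (0%), with 1347 at an unadjusted p under 0.05. PLOD2 was lower in Dp44mT by a log2 difference of −0.23 (interval −0.72 to 0.25) and P4HA1 by −0.26 (interval −0.77 to 0.25). For both, the 2 Dp44mT arrays lay below the 2 DFO arrays. Of the 17 probe sets 4 lay above without overlap (12.9% of all probe sets), among them all 3 of P4HB, and 3 lay below (12.4%). The 3 of P4HB belong to 1 gene and differed by 0.16, 0.05 and 0.09, but by −0.01, −0.17 and −0.19 on the deposited scale. P4HA2 differed by 0.10 (interval −0.47 to 0.67), and its sign changed with the scaling between arrays (−0.26 on the deposited scale). The intervals do not show that the chelators acted alike: they include differences as large as the bounds given.

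Among other genes of collagen maturation in the endoplasmic reticulum and during secretion, few passed. Of 25 genes chosen, 24 had a probe set and 22 were tested. In DFO 0 of 22 passed in limma (4 at an unadjusted p under 0.05), with a median of −0.03, beside −0.03 over all 16868 genes taken at their brightest tested probe set. In DFO 0.794% of those genes were called (0.753% higher, 0.0415% lower). SEC24D, a coat protein of the vesicles that export procollagen, had the smallest p (log2 1.25, limma adjusted p = 0.141), followed by P3H4, a partner of the lysyl and prolyl 3-hydroxylases (−0.88, limma adjusted p = 0.253). FKBP7 (−0.98) and the disulfide isomerase PDIA4 (0.48) came next. In Dp44mT, SEC24D rose by 3.04-fold (log2 1.60, SE 0.24, limma adjusted p = 0.0472) and P3H4 fell by 1.76 on the log2 scale (SE 0.22, limma adjusted p = 0.0344), and 20 of 22 did not pass (median 0.11, beside 0.03 over all genes). In Dp44mT 2.06% of the 16868 genes were called (1.36% higher, 0.7% lower), and nothing about the list is read from 2 calls. The P3H4 difference in Dp44mT was −1.57 in set 1 and −1.95 in set 2. These 2 calls were lost on the deposited scale, with array medians subtracted, with a pseudocount of 1 and when only Dp44mT and control were fitted, and SEC24D alone without a filter on dim probe sets. With any 1 of the 6 arrays left out, at most P3H4 passed.

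The substrates themselves, the collagen chains, were not called. Of 40 chain genes 39 had a probe set and 33 were tested, and 0 passed in limma in either comparison (medians −0.05 in DFO and 0.03 in Dp44mT). The smallest p in DFO was that of COL5A2 (−0.96, limma adjusted p = 0.362), then COL4A2 (−0.84), COL4A5 (−0.89) and COL4A3 (−0.40). In Dp44mT it was that of COL21A1 (−1.17, limma adjusted p = 0.0935), then COL5A2 (−0.94), COL4A5 (−1.14) and COL4A2 (−0.99). COL1A2, a chain of type I collagen and one of the fibroblast markers, differed by −0.26 in set 1 and 3.45 in set 2 in DFO, and by −0.31 and 3.70 in Dp44mT. Each is taken from the control array of the same number, so the gap between sets also holds the spread of the control pair.

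Among iron-dependent oxygenases that do not act on collagen, 4 of 18 tested rose in each comparison and 0 fell. Of all 16868 genes, 0.753% were called higher in DFO and 1.36% in Dp44mT. The HIF prolyl hydroxylase EGLN1 rose by 5.08-fold in DFO and 4.61-fold in Dp44mT (log2 2.34 and 2.20), and EGLN3 by 6.73-fold and 5.48-fold. The limma adjusted p of the 4 genes ran from 0.0151 to 0.0487 in DFO and from 0.00974 to 0.0353 in Dp44mT. The histone demethylase KDM3A rose by 8.39-fold and 9.49-fold, and KDM4B by 2.88-fold and 3.18-fold. The list's medians were 0.33 in DFO and 0.28 in Dp44mT. P4HTM, a prolyl hydroxylase of the endoplasmic reticulum membrane, was in the list and was not called in either.

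**Figure D4:**
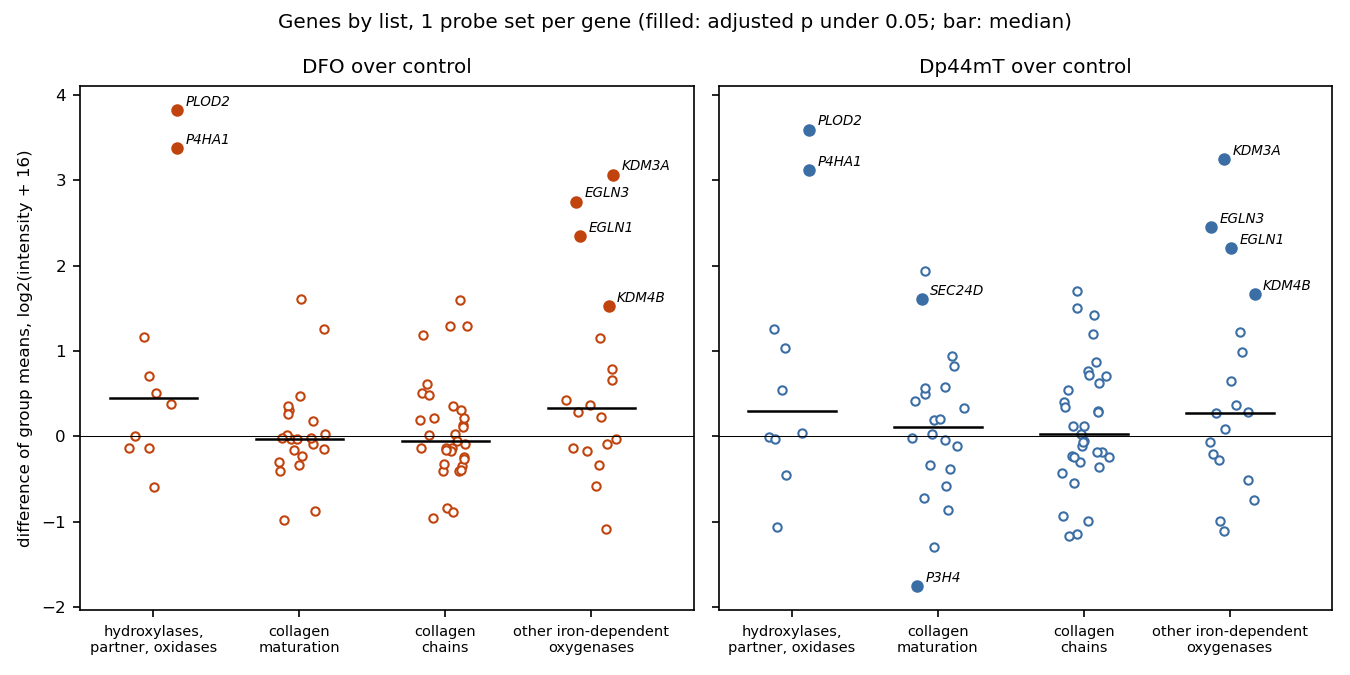
Difference of group means of log2(intensity + 16), DFO over control and Dp44mT over control, for the 10 genes of collagen hydroxylation and cross-linking and for the tested genes of 3 other lists, 1 probe set per gene; filled points have an adjusted p under 0.05 and bars are medians. PLOD2 and P4HA1 stand above the other 8 genes, 0 of 33 collagen chains are filled, and EGLN1, EGLN3, KDM3A and KDM4B are filled in both panels.

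The genes with the pattern most like that of PLOD2 over the 6 arrays, by root mean square difference of control-centred log2 values among 16867 genes, were PAG1 (0.17), ANGPTL4 (0.20), CCL20 (0.21), PPP1R3C (0.23) and CREB5 (0.29). PAG1 encodes an adaptor of Src-family kinases, ANGPTL4 an inhibitor of lipoprotein lipase, CCL20 a chemokine, PPP1R3C a glycogen-targeting phosphatase subunit and CREB5 a transcription factor. P4HA1 stood at place 7 in that order (0.38). Those most like P4HA1 were POFUT4 (0.20), KDM3A (0.20), the HIF co-regulator CITED2 (0.21), the mTORC1 inhibitor DDIT4 (0.21) and the small GTPase gene RIT1 (0.22), with PLOD2 at place 21. All 10 genes named passed in both comparisons, with log2 changes of 3.07 to 3.80 in DFO and 3.05 to 3.73 in Dp44mT. The measure takes in the size of the change as well as its course, and all values come from the same 6 arrays. Changes of like size, and with them the calls, therefore follow largely from how these genes were picked.

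The calls of PLOD2 and P4HA1 did not hold with 1 array of the groups compared left out, although the differences stayed close. With any 1 control or DFO array left out, 0 of the probe sets on the array passed for DFO in limma (1639 to 5638 at an unadjusted p under 0.05), and with any 1 control or Dp44mT array left out 0 passed for Dp44mT (3457 to 12723). The PLOD2 difference then was 3.68 to 3.95 in DFO (limma adjusted p = 0.103 to 0.340) and 3.44 to 3.71 in Dp44mT (0.0751 to 0.259). That of P4HA1 was 3.21 to 3.52 in DFO and 2.96 to 3.26 in Dp44mT. Without both set 2 chelator arrays, where a lone array per chelator is assumed to vary like the control pair, 3 probe sets passed in DFO and 4 in Dp44mT, the fourth being P4HA2 (log2 1.31). On the deposited scale, the median of all probe sets fell to −0.30 in DFO and −0.46 in Dp44mT. There 31 probe sets passed in DFO (24 higher, 7 lower, against 233 higher and 8 lower after normalization) and 39 in Dp44mT (15 higher, 24 lower, against 439 and 231). PLOD2 kept its DFO call on that scale (log2 3.49, limma adjusted p = 0.0490), while P4HA1 lost it in DFO (3.03, limma adjusted p = 0.157), and PLOD2 and P4HA1 both lost it in Dp44mT (2.98 and 2.50, limma adjusted p = 0.0795 and 0.117). With array medians subtracted, all 3 probe sets passed in both comparisons, and 363 probe sets passed in Dp44mT (183 higher, 180 lower).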

How the data were processed

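Each array came with 1 intensity per probe set, deposited on a linear scale. The submitters' processing notes name Affymetrix Expression Console 1.1 for making them; the summarization and normalization are not given in the sources used here. Probe sets were named with the platform's annotation: 41097 had 1 symbol, 1801 several and 11777 none. Intensities were taken as log2(intensity + 16) and quantile normalized over the 6 arrays (limma 3.58.1, run in R 4.3.3). Without the 62 control probe sets and those with a mean below the 25th percentile (5.55), 40950 probe sets were tested, among them 17 of the 22 described. Of the 5 others, values are given without a test. Fold changes are on the log2(intensity + 16) scale and understate changes of dim probe sets.

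The test was limma's moderated one, two-sided, with all 3 groups in 1 model (3 residual and 2.53 prior degrees of freedom), with Benjamini-Hochberg adjustment over all probe sets tested within a comparison. A 95% interval reached 0.68 log2 units to either side in the median, and the 2 arrays per group limit the precision. The intervals are not adjusted for the number of probe sets tested. With 2 arrays in each group, no exact permutation test could reach a p under 0.333. Each gene stands for its probe set with the highest mean. All 10 genes are named, with up to 4 genes per list and comparison (those past the threshold by size, or those with the smallest p) and the 5 genes closest in pattern to PLOD2 and to P4HA1. Genes, lists and tests were chosen with earlier results of these data known. P4HTM, COL1A2 and the named markers were chosen after their values were seen. Alternatives were other scalings, pseudocounts, filters, sets of arrays, a set block and a variance trend.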

Additional observations from a re-analysis of the deposited data

How the results depend on the processing

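For the 10 genes and the 22 probe sets, counts of calls and differences were recomputed under 18 alternatives, of which 1, a block with the control set numbers exchanged, was chosen after seeing the data. Called members numbered 3 in DFO and 3 in Dp44mT. On the deposited scale 0 were called in Dp44mT. With 1 array left out, called members ran from 0 to 3 in each comparison, all probe sets called from 0 to 52 in DFO and from 0 to 629 in Dp44mT, and other collagen maturation genes from 0 to 1 in Dp44mT. All probe sets called, 241 in DFO and 670 in Dp44mT, became 31 and 39 on the deposited scale, 144 and 363 with array medians subtracted, 156 and 342 with a pseudocount of 1, 437 and 1433 with a pseudocount of 64, 393 and 1114 with a filter at the median, 566 and 1867 with a variance trend, and 380 and 3544 without both set 2 chelator arrays. With only the compared groups, 57 were called in DFO. The cause of these shifts was not tested. Other collagen maturation genes called in Dp44mT, 2, became 0 on the deposited scale, with array medians subtracted, with a pseudocount of 1 and with only the compared groups, 1 without a filter and 5 with the exchanged block; in DFO 1 was called with a variance trend, against 0.

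The correlation of the deviations of same-numbered arrays from their group means was 0.83 between Dp44mT and DFO, but −0.33 between Dp44mT and control and −0.23 between DFO and control, so the numbers were not taken to pair chelator with control arrays. With the set number as a replicate block, 208 probe sets were called in DFO and 1245 in Dp44mT, and called members were 3 and 4. With the control set numbers exchanged in the block, 809 and 5796 were called.

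Some differences that did not pass changed sign. On the deposited scale P4HB gave −0.018 in DFO, −0.032 in Dp44mT and −0.014 for Dp44mT over DFO, LOX gave −0.30 in Dp44mT, and P4HA2 −0.26 for Dp44mT over DFO, with −0.11 when medians were subtracted. Without both set 2 chelator arrays SERPINH1 gave 0.24 in DFO, PLOD3 0.019 and LOXL2 0.26 in Dp44mT, and for Dp44mT over DFO PLOD3 gave 0.16 and P4HA2 −0.0052. With 1 array left out, the DFO difference ran from −0.14 to 0.14 for PLOD3 and from −0.49 to 0.24 for SERPINH1. In Dp44mT it ran from −0.093 to 0.073 for PLOD3, from −0.17 to 0.26 for LOX and from −0.39 to 0.32 for LOXL2. For Dp44mT over DFO it ran from −1.01 to 0.075 for PLOD1, from −0.15 to 0.13 for PLOD3, from −0.025 to 0.23 for P4HA2, from −0.48 to 1.11 for P4HA3, from −0.027 to 0.41 for LOX and from −0.72 to 0.086 for SERPINH1.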
